A study of Mus musculus with 12 samples.

Results

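Messenger RNA for 89 genes of ligand-gated ion channels and neurotransmitter transporters was compared among 3 immortalized mouse cell lines. The rule that picked them reads gene symbols and no measured value, although the families were proposed with earlier results of these data known. They are the subunits of the GABA-A, ionotropic glutamate, nicotinic acetylcholine, glycine and 5-HT3 receptors, the Slc1, Slc6 and Slc17 transporters, and Slc32a1. Of 96 protein-coding genes whose symbols fit, 89 had a target on the arrays, which measured 25128 genes and targets in all. Chrna9, Chrna10, Gabrr3, Grik3, Grin3a, Slc6a16 and Slc6a18 were not analysed here. The lines were AtT20, which comes from a pituitary tumor and is used as a neuroendocrine model, BV2, an immortalized microglial line, and N18, a neuroblastoma line. Each line was grown without treatment in the same serum-containing medium on 4 plates (n = 4), which the labels call biological replicates, and the RNA of each plate was put on its own array. Each group is thus 1 established line, so a difference between groups is a difference between lines and not between cell types.

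Ligand-gated channels open when a transmitter binds, and most of the receptors here are pentamers or tetramers whose subunit makeup sets which ions pass and which drugs bind. GABA-A and glycine receptors pass chloride, whereas ionotropic glutamate, nicotinic and 5-HT3 receptors pass cations. The transporters end the signal or load the vesicles: Slc1 and Slc6 proteins take up transmitters and amino acids across the plasma membrane with sodium, and the vesicular carriers of the Slc17 family and Slc32a1 fill synaptic vesicles. Neurons use most of these genes, but several Slc1 and Slc6 members carry amino acids, taurine or betaine in many dividing cells.

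Values are log2 intensities of the arrays, and both scales used here are log2 scales. A gene's level is its log2 intensity minus the mean of 10 seminal proteins of the same array, which stand for genes that are not expressed. A gene was taken as detected in a line where its mean level over the 4 plates was above 2 SD of the seminal proteins, which came to a level of 0.37 for AtT20, 0.56 for BV2 and 0.74 for N18. Lines were compared on quantile-normalized log2 intensities, and a gene differed between lines where the adjusted p of limma was under 0.05 and the higher line had detected it. Where the lower line had not detected the gene, its threshold stands in for its value and the fold is written as at least so much, and no fold is given where that did not exceed 1. A level is set against the threshold only, since the probes of different genes are not comparable.

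The plates labelled AtT20 stood apart from the others. Pomc, the hormone precursor that defines corticotrophs, had a level of 0.29 ± 0.26 (SD, n = 4) there, below the threshold, and so did the corticotroph factor Tbx19 (0.02 ± 0.06) and the prohormone convertase Pcsk1 (0.14 ± 0.05). Of 10 pituitary markers listed, only Pitx1 was detected on these plates, with a summed level of 0.53 to 1.40. The list also held Gh, Prl and Cga (0.25, -0.07 and 0.07 there), which mark other pituitary cells. The counts and sums are therefore not of corticotroph genes alone. Relative to the seminal proteins, the other lines read as high or higher on some of these markers. BV2 had 2 detected (summed level 0.48 to 0.96), with Pomc at 0.67 ± 0.12 and Tbx19 at 1.43 ± 0.16, and N18 had 3 (3.72 to 4.65), with Tbx19 at 1.46 ± 0.07. On quantile-normalized values the order of Pomc turned, with 10.96 ± 0.42 in AtT20, 10.64 ± 0.14 in BV2 and 10.33 ± 0.07 in N18. Pcsk1 (10.76, 9.93 and 9.85) and Pitx1 (11.41, 10.17 and 10.50) were also highest in AtT20 there. Tbx19 (10.42, 11.32 and 10.94) and Crhr1 (10.61, 10.23 and 12.31) were not. The detected markers thus do not bear out the AtT20 label. The label, the RNA or the array signal of these plates is in doubt, and AtT20 stands below for the plates so labelled. The arrays labelled AtT20 correlated with those of BV2 and N18 at r = 0.395 to 0.497 over all probes, against 0.790 to 0.824 between BV2 and N18. Their probe values also spread less, with an interquartile range of 0.38 to 0.78 against 1.28 to 1.73 in BV2 and 1.91 to 2.21 in N18. Quantile normalization gives every array the same distribution and so widens that of AtT20. Among themselves the AtT20 arrays correlated at 0.898 to 0.950, those of BV2 at 0.964 to 0.986. Of 11 microglial markers 9 were detected in BV2 (summed level 32.7 to 39.0, against 3.75 to 5.06 in N18), and of 16 neuronal markers 14 were detected in N18 (49.7 to 54.7, against 6.65 to 8.82 in BV2). Markers listed for other cell types were also detected on the plates labelled AtT20. The study describes this line as partly neuron-like, so the neuronal list is not wholly foreign to it. On these plates 10 of the 16 neuronal markers were detected (summed level 11.3 to 21.9). They included the neurofilament genes Nefl (4.46 ± 0.48) and Nefm (2.87 ± 0.69) and the factor Hand2 (2.03 ± 0.93). Also detected were 4 of 5 skeletal muscle markers (1.15 to 2.86) and 3 of 6 fibroblast markers (1.43 to 4.19, with the collagen gene Col1a1 at 1.69 ± 0.64). So were 3 of 6 astrocyte and oligodendrocyte markers (0.90 to 2.93) and 1 of 11 microglial markers (-0.29 to 1.69). The other lines had such detections too. In BV2 they were 2 muscle (1.79 to 2.51), 2 fibroblast (1.32 to 2.27), 2 astrocyte and oligodendrocyte (1.85 to 2.63) and 7 neuronal markers. In N18 they were 1 muscle (1.17 to 1.58), 3 fibroblast (4.10 to 5.77), 1 astrocyte and oligodendrocyte (0.75 to 1.82) and 3 microglial markers. Over all genes and targets 35% were detected in AtT20, 53.3% in BV2 and 55.4% in N18. The part of the markers and array differences of the AtT20 plates in the results for AtT20 was not tested. Each comparison was therefore also made with levels relative to the seminal proteins and on unnormalized intensities, and these 2 and quantile normalization are called the 3 scalings. The median difference of all genes between BV2 and AtT20 was -0.23 on quantile-normalized values, 0.28 on levels relative to the seminal proteins and -1.08 on unnormalized intensities. Between N18 and AtT20 these medians were -0.25, 0.54 and -0.85. Between N18 and BV2 they were -0.06, 0.18 and 0.15.

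To show the sequence next to the starts of the genes that the results turn on, the promoter windows of 4 genes that differed between N18 and BV2 under each of 8 other settings are printed here. A window runs from 250 bases before to 50 bases after the start (RefSeq, GRCm38.p6), and such a window was given for 5 of 8 of these genes. Capitals mark matches on either strand. The GC box was searched as GGGCGG. The letters of the CCAAT box are its name. The TATA box, which positions the start of many genes, was searched as TATAAA. The amino acid response element, a site used by stress-regulated factors, was searched as TGATGNAA. Slc1a4 lies on the minus strand at chr11:20332664-20332963, Chrna3 on the minus strand at chr9:55026513-55026812, Chrnb2 on the minus strand at chr3:89764583-89764882, and Slc6a12, shown at the most upstream of its 5 starts, on the plus strand at chr6:121342324-121342623.
Slc1a4: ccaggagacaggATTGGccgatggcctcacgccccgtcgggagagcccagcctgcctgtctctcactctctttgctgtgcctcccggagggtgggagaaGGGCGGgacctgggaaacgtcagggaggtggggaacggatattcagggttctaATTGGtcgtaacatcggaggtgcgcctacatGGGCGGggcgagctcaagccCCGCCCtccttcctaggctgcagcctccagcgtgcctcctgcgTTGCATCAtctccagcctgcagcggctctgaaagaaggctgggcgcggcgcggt
Chrna3: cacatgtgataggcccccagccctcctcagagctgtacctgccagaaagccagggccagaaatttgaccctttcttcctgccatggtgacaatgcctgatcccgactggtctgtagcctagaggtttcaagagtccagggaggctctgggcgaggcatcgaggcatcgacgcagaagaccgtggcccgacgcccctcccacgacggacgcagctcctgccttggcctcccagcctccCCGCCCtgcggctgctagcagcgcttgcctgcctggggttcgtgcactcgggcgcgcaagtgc
Chrnb2: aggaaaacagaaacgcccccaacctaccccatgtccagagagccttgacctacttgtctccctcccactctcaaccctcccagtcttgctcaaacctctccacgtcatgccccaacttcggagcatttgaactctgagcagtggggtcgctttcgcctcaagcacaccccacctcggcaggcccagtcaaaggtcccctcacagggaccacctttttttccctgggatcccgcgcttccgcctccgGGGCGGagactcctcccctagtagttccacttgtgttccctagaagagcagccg
Slc6a12: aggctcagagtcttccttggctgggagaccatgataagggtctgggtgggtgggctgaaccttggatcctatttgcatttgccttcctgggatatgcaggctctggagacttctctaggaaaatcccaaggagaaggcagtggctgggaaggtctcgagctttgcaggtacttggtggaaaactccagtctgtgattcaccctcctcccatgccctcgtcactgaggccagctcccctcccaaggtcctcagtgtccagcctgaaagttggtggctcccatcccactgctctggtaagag
The Slc1a4 window held 3 GC boxes, 2 CCAAT boxes and 1 match to the amino acid response element. The Chrna3 and Chrnb2 windows held 1 GC box each and none of the other motifs, and the Slc6a12 window held none of the 4. Of the 32851 windows in the table, 35.7% held a GC box, 37.4% a CCAAT box, 13.6% a TATA box and 3.97% a match to the amino acid response element. Of the 83 windows of 65 measured members, 42.2%, 24.1%, 8.43% and 6.02% did. The windows of Slc1a4, Chrna3 and Chrnb2 held 21, 18 and 12 CpG dinucleotides, and that of Slc6a12 held 2. Gabra5, whose window is not printed, had 1 CCAAT box, none of the other motifs and 13 CpG dinucleotides. These matches describe the letters and were not related to the levels.

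Most of these genes were not detected in any of the lines. Of the 89 genes, 49 (55.1%) were below the threshold in all 3 lines, against 32.4% of all genes and targets. These included all 5 glycine receptor subunits, the 4 AMPA receptor subunits Gria1 to Gria4, the main glial glutamate carrier Slc1a2, the noradrenaline and dopamine carriers Slc6a2 and Slc6a3, the neuronal glycine carrier Slc6a5, and the vesicular glutamate carriers Slc17a6 and Slc17a8. Their mean levels ran from -0.22 to 0.27 in AtT20, from -0.60 to 0.46 in BV2 and from -0.63 to 0.70 in N18. A level below the threshold does not show that the mRNA is absent, and in a culture fewer cells with a transcript and less of it in each cell cannot be told apart.

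AtT20 had detected levels of 17 of the 89 genes (19.1%), BV2 of 26 (29.2%) and N18 of 31 (34.8%). Over all genes and targets the shares were 35%, 53.3% and 55.4%, so that each line had a smaller share of these genes than of the whole array. Of the 40 genes detected somewhere, 10 were detected in all 3 lines, 10 in BV2 and N18, 10 in N18 only, and 3 in BV2 only. The remaining 7 were detected in AtT20 with or without 1 other line. By plate, 13, 20, 17 and 18 genes were above the plate's own threshold in AtT20, 28, 28, 20 and 30 in BV2, and 23, 29, 31 and 33 in N18. The N18 plates did not overlap the AtT20 plates, and BV2 plate 3 equalled the highest AtT20 plate. The mean was 12 genes higher in N18 than in AtT20 (two-sided exact permutation test, p = 0.0286, adjusted over 3 comparisons 0.0857) and 9.5 genes higher in BV2 than in AtT20 (exact p = 0.0571, adjusted 0.0857), which turned to -0.75 with olfactory receptors as the controls. N18 was 2.5 genes above BV2 (exact p = 0.457, adjusted 0.457), which turned to -0.25 with a threshold of 3 SD. The smallest p that 4 against 4 plates allow is 0.0286. Asking for at least 2 probes above the threshold left 7, 21 and 25 genes, and asking for every plate left 10, 19 and 22. Under all 8 alternative rules 4 genes stayed above the threshold in AtT20, 7 in BV2 and 10 in N18.

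**Figure D1:**
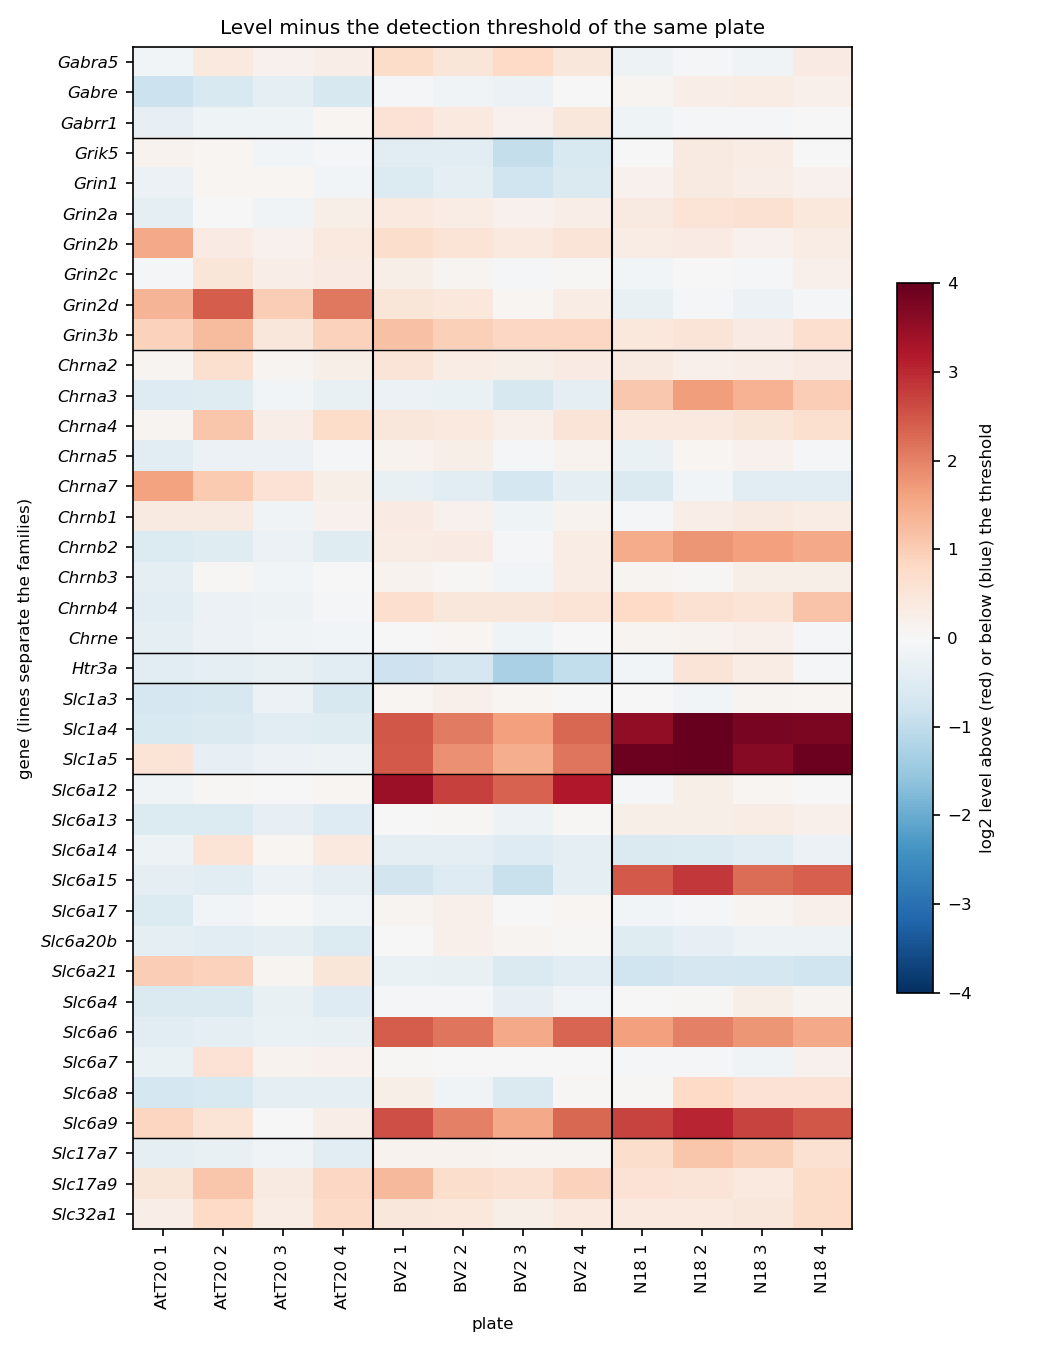
Level minus the detection threshold of the same plate (log2 scale, colour) for 39 of the 40 genes detected in at least 1 line (rows, grouped by family) on the 12 plates (columns). Red is above and blue below the threshold. Slc1a4 and Slc1a5 are above it on every BV2 and N18 plate, Slc6a15 on the N18 plates alone, and Slc6a12 stands highest on the BV2 plates.

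The clearest contrast between the lines was between N18 and BV2, for which the arrays are most alike. N18 had more mRNA than BV2 for the amino acid carriers Slc6a15, Slc1a5 and Slc1a4 and for the nicotinic subunits Chrna3 and Chrnb2. BV2 had more mRNA for the betaine and GABA carrier Slc6a12 and for the GABA-A subunit Gabra5. In all, 10 of the 89 genes were higher in N18, where 17.4% of all genes and targets were, and 8 were lower, where 17.8% were. In either direction 18 genes differed (20.2%), against a background of 35.2%. By the adjusted p alone 24 differed (27%, background 40.9%), and the plates of 41 (46.1%) did not overlap, as those of 55.4% of all genes and targets. The median difference of the 89 genes was -0.08, against -0.06 over all. Under all 3 scalings the same 10 genes were higher (background 17.4%) and 2 were lower (5.99%). Over all genes and targets, 4376 were higher with or without this demand, whereas the lower ones fell from 4472 to 1504. Both other scalings moved the median of all genes toward N18 (0.18 and 0.15, against -0.06). Holding under 3 scalings therefore could not single out any of the higher genes.

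**Figure D2:**
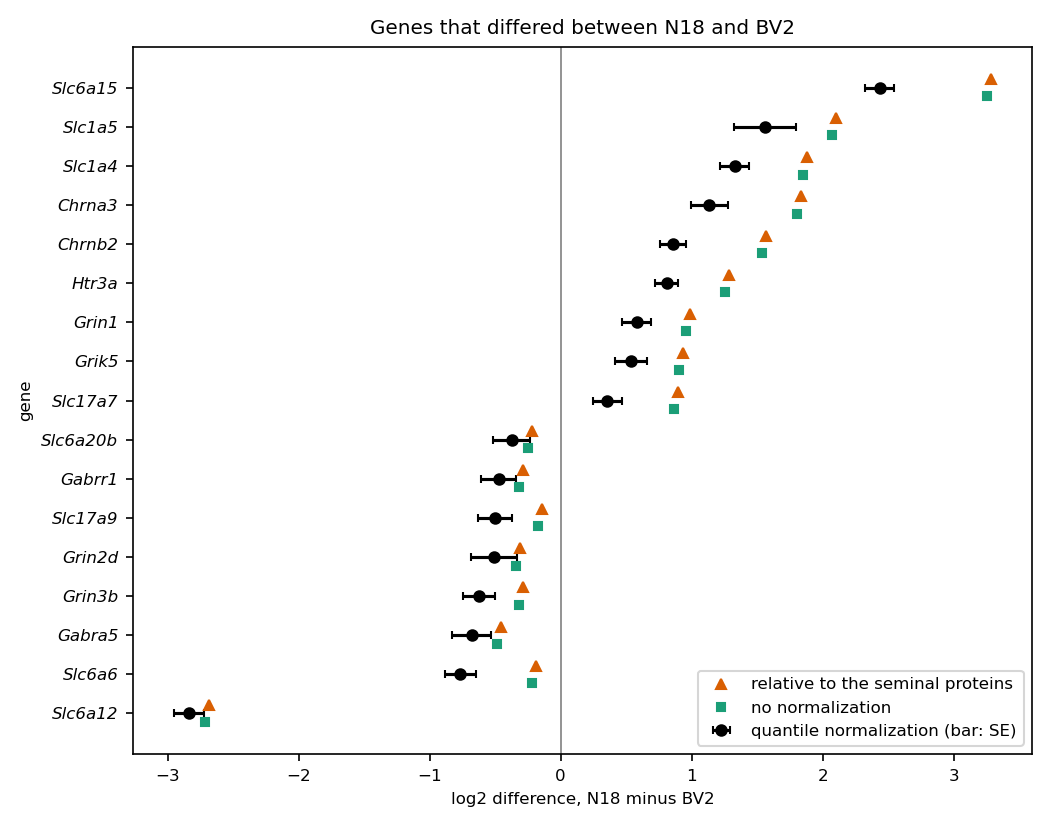
Log2 difference between N18 and BV2 for 17 of the 18 genes that differed, with quantile normalization (circles, bars are the SE), on the unnormalized intensities (squares) and relative to the seminal proteins (triangles). The 9 genes higher in N18 lie to the right of 0 on every scaling, and among the 8 lower genes Slc6a12 lies farthest to the left.

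Against the plates labelled AtT20, 9 of the 89 genes were higher in BV2 (background 24.2%) and 15 were lower (23.8%), or 24 in either direction (27%, background 48%). N18 had 14 higher genes (26.1%) and 16 lower ones (23.9%), or 30 in all (33.7%, background 50%). The median difference of the 89 genes was -0.33 for BV2 and -0.41 for N18 with quantile normalization, and 0.13 and 0.15 relative to the seminal proteins. Only part of these calls held under the 3 scalings, namely 5 higher and 5 lower genes in BV2 (background 11.7% and 7.95%) and 8 higher and 3 lower genes in N18 (18.7% and 6.18%). Relative to the seminal proteins, 10 of the 15 lower genes in BV2 and 11 of the 16 in N18 turned to higher. By the adjusted p alone 68 genes differed in BV2 (76.4%, background 73.6%) and 69 in N18 (77.5%, background 76.4%), of which 43 and 36 were below the threshold in both lines compared. The plates of 48 genes did not overlap in BV2 (53.9%, background 62.6%), nor those of 64 in N18 (71.9%, background 68.2%). Both comparisons use the same AtT20 plates and share what is particular to them.

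**Figure D3:**
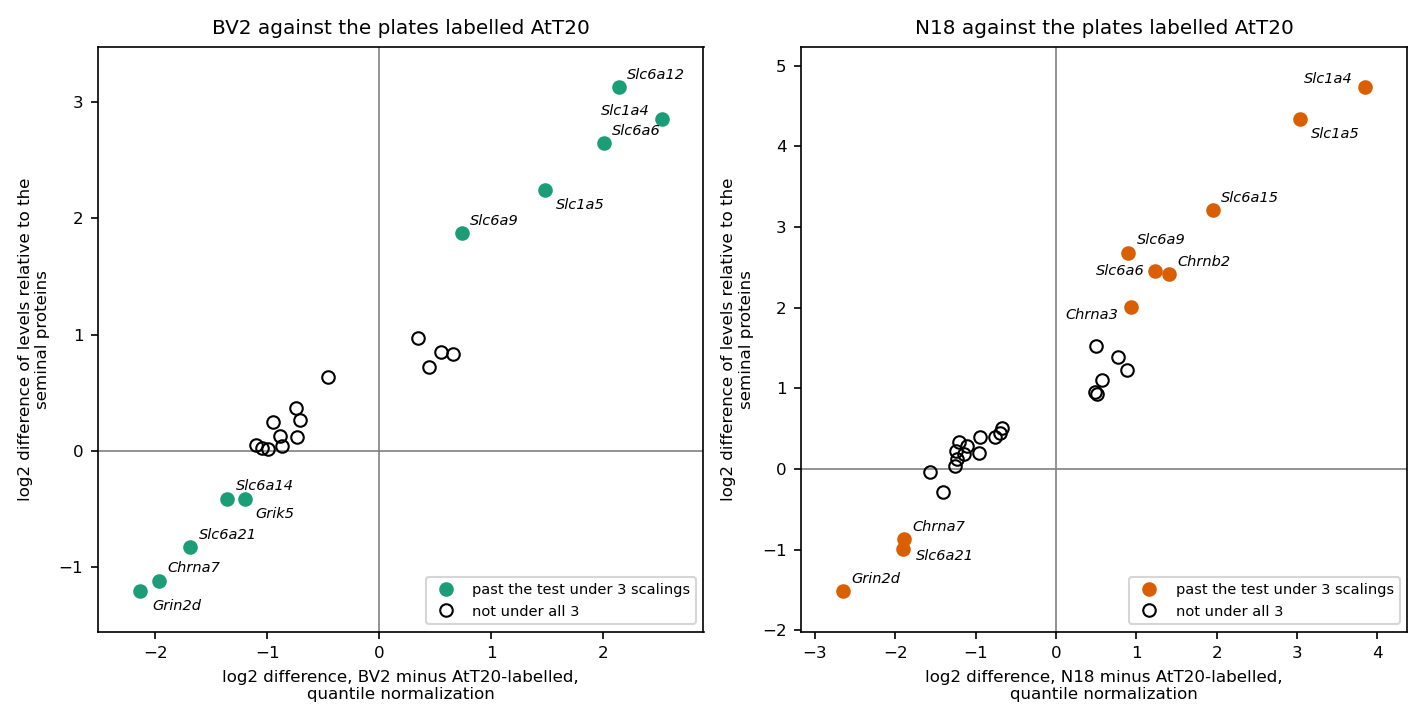
Log2 difference from the plates labelled AtT20 on quantile-normalized values (horizontal axis) and relative to the seminal proteins (vertical axis), for the 24 genes that differed in BV2 (left) and 29 of the 30 in N18 (right). Filled points passed the test in the same direction under 3 scalings; open points to the left of 0 lie mostly just above 0 on the vertical axis.

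Among the chloride channels, few subunits reached the threshold and their patterns differed by line. Gabra5, the alpha subunit of extrasynaptic receptors in the hippocampus, was detected in AtT20 and BV2. It read 11.03, 11.00, 11.51 and 10.82 log2 units on the BV2 plates, 10.37, 10.34, 10.30 and 10.64 in N18 and 11.24, 11.55, 11.74 and 11.68 in AtT20. The N18 plates were all below those of BV2, and BV2 and AtT20 overlapped. N18 was lower than BV2 by 0.68 ± 0.15 (SE, adjusted p = 0.0016), so that BV2 was at least 1.2-fold higher. The quantile-normalized differences from AtT20 were -0.46 for BV2 and -1.14 for N18, and both turned relative to the seminal proteins (0.63 and 0.18).

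The epsilon subunit Gabre was detected in N18 only, at a level of 0.96 ± 0.03 (SD, n = 4), and its difference from BV2 did not pass the test (0.18 ± 0.10, adjusted p = 0.196). Against AtT20 it was higher in N18 by 0.88 ± 0.10 (adjusted p = 1.04e-06), with the sign turned without normalization (-0.17). The rho subunit Gabrr1, known from retinal GABA-C receptors, was detected in BV2 only, at 0.96 ± 0.16. N18 was below BV2 for Gabrr1 by 0.47 ± 0.13 (adjusted p = 0.00815, at least 1.1-fold), a call that was lost without normalization. Gabra2 to Gabra4, Gabra6, Gabrb1, Gabrb2, Gabrd, Gabrg1 to Gabrg3, Gabrp, Gabrq and Gabrr2 were below the threshold in every line. The 5 glycine receptor subunits, which form the chloride channels of spinal inhibition, had mean levels of -0.09 to -0.02 in AtT20, -0.60 to 0.11 in BV2 and -0.59 to 0.41 in N18, all below the thresholds.

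Of the 14 glutamate receptor subunits, those detected belonged to the NMDA receptors, with the kainate subunit Grik5 as the exception. AtT20 and BV2 each had 5 detected subunits and N18 had 6. Grin1, the obligatory NMDA subunit, was detected in N18 only, at a level of 0.98 ± 0.08, with 4 plates above the threshold. By probe, its levels were 1.54, 0.77 and 0.34 in N18 and 0.19, 0.31 and 0.42 in AtT20. On normalized values N18 minus AtT20 was 0.14, -0.60 and -1.11 for the same probes. N18 and AtT20 thus had no settled order for Grin1. The normalized intensity of Grin1 was 10.57 to 10.63 in N18 and 9.96 to 10.06 in BV2, without overlap. N18 was higher than BV2 by 0.58 ± 0.11 (SE, adjusted p = 0.000536). Grik5, a subunit of high-affinity kainate receptors, ran from 10.43 to 10.62 in N18 and from 9.93 to 10.11 in BV2, a difference of 0.54 ± 0.12 (adjusted p = 0.00198). Both calls were lost with the median of the probes. Detection of Grik5 held under 3 of 8 alternative rules in N18 and likewise in AtT20.

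Grik5 read 11.59, 11.14, 10.93 and 11.13 on the plates labelled AtT20, above all plates of BV2, which read 10.11, 10.00, 9.93 and 9.93. BV2 was lower by 1.20 ± 0.12 (adjusted p = 1.76e-07). This call was lost without AtT20 plate 1 or plate 2, since AtT20 then fell below its threshold, where the differences were -1.07 and -1.22. For N18 against AtT20 the difference was -0.67 with quantile normalization and 0.51 relative to the seminal proteins. The other kainate subunits measured, Grik1, Grik2 and Grik4, were below the threshold in every line.

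Grin2d, an NMDA subunit whose channels close slowly, was highest on the plates labelled AtT20. It read 12.35, 13.19, 12.76 and 13.45 there, 10.77, 10.92, 10.84 and 10.65 in BV2 and 10.29, 10.29, 10.21 and 10.36 in N18. The lines did not overlap. BV2 was lower than AtT20 by 2.14 ± 0.18 (adjusted p = 1.69e-08) and N18 by 2.65 ± 0.18 (adjusted p = 1.15e-09, so that AtT20 was at least 2.5-fold higher). Only 1 of the 3 Grin2d probes was above the threshold, in each line, and both calls were lost with the median of the probes. N18 was below BV2 by 0.51 ± 0.18 (adjusted p = 0.0306), a call lost under the other scalings and without any of 6 plates, BV2 plates 1, 2 or 3 or N18 plates 1, 2 or 3 (differences from -0.52 to -0.47), and its sign turned with the median of the probes (0.02).

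Grin2b, Grin2c and Grin3b were detected in all 3 lines. Grin2b, the NMDA subunit typical of young neurons, read 12.66, 11.41, 11.70 and 11.81 in AtT20, 10.99, 11.06, 11.10 and 10.88 in BV2 and 10.72, 10.60, 10.56 and 10.66 in N18. AtT20 plate 1 was the highest of the 12 plates. Its mean level was 0.97 ± 0.70, 1.10 ± 0.15 and 1.01 ± 0.15 in the same order, which overlapped, and N18 and BV2 did not pass the test against each other (-0.37 ± 0.19, adjusted p = 0.136).

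Grin2c, the NMDA subunit of cerebellar granule cells, read 11.25, 11.61, 11.94 and 11.78 in AtT20, 10.64, 10.59, 10.67 and 10.49 in BV2 and 10.40, 10.31, 10.35 and 10.57 in N18. BV2 and N18 overlapped (-0.19 ± 0.13, adjusted p = 0.272), and AtT20 was above both. Grin3b, a glycine-binding NMDA subunit of motor neurons, read 12.25, 12.27, 12.22 and 12.53 in AtT20, 11.34, 11.47, 11.54 and 11.13 in BV2 and 10.77, 10.67, 10.65 and 10.89 in N18. The 3 lines did not overlap in Grin3b, and N18 was below BV2 by 0.62 ± 0.12 (adjusted p = 0.000472), a call lost under both other scalings.

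On quantile-normalized values all 3 of these subunits were lower in BV2 and N18 than in AtT20. BV2 was lower by 0.89 ± 0.19 for Grin2b, 1.05 ± 0.13 for Grin2c and 0.95 ± 0.12 for Grin3b. N18 was lower by 1.26 ± 0.19, 1.23 ± 0.13 and 1.57 ± 0.12. Relative to the seminal proteins the differences of BV2 became 0.13, 0.02 and 0.25 and those of N18 0.04, 0.12 and -0.03, so no direction against AtT20 is given for them. Grin2a, the main NMDA subunit of the mature forebrain, was detected in BV2 (level 0.84 ± 0.13) and N18 (1.22 ± 0.04), with normalized values that overlapped (-0.01 ± 0.15, adjusted p = 0.976).

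Of the 14 nicotinic receptor subunits 10 were detected in at least 1 line, 4 of them in AtT20, 7 in BV2 and 8 in N18. Chrna3 and Chrnb2 were higher in N18 than in either other line. Chrna3, the alpha subunit of ganglionic receptors, whose promoter window is printed above, read 11.26, 11.45, 11.47 and 11.14 in N18, 10.26, 10.20, 10.17 and 10.15 in BV2 and 10.08, 10.14, 10.76 and 10.60 in AtT20. Each N18 plate was above all plates of the other lines. N18 was higher than BV2 by 1.14 ± 0.14 (SE, adjusted p = 5.35e-06, at least 1.7-fold) and higher than AtT20 by 0.94 ± 0.14 (adjusted p = 1.42e-05).

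Chrnb2, the beta subunit of the main nicotinic receptor of the brain, read 11.60, 11.53, 11.66 and 11.55 in N18, 10.66, 10.83, 10.70 and 10.70 in BV2 and 10.02, 10.13, 10.41 and 10.13 in AtT20. The 3 lines did not overlap. N18 was 1.81-fold higher than BV2 (difference 0.86 ± 0.10, adjusted p = 2.97e-06) and at least 1.2-fold higher than AtT20 (1.41 ± 0.10, adjusted p = 2.4e-09). BV2 was above AtT20 by 0.55 ± 0.10, with the sign turned without normalization (-0.51). For both genes all 3 probes were above the threshold in N18.

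**Figure D4:**
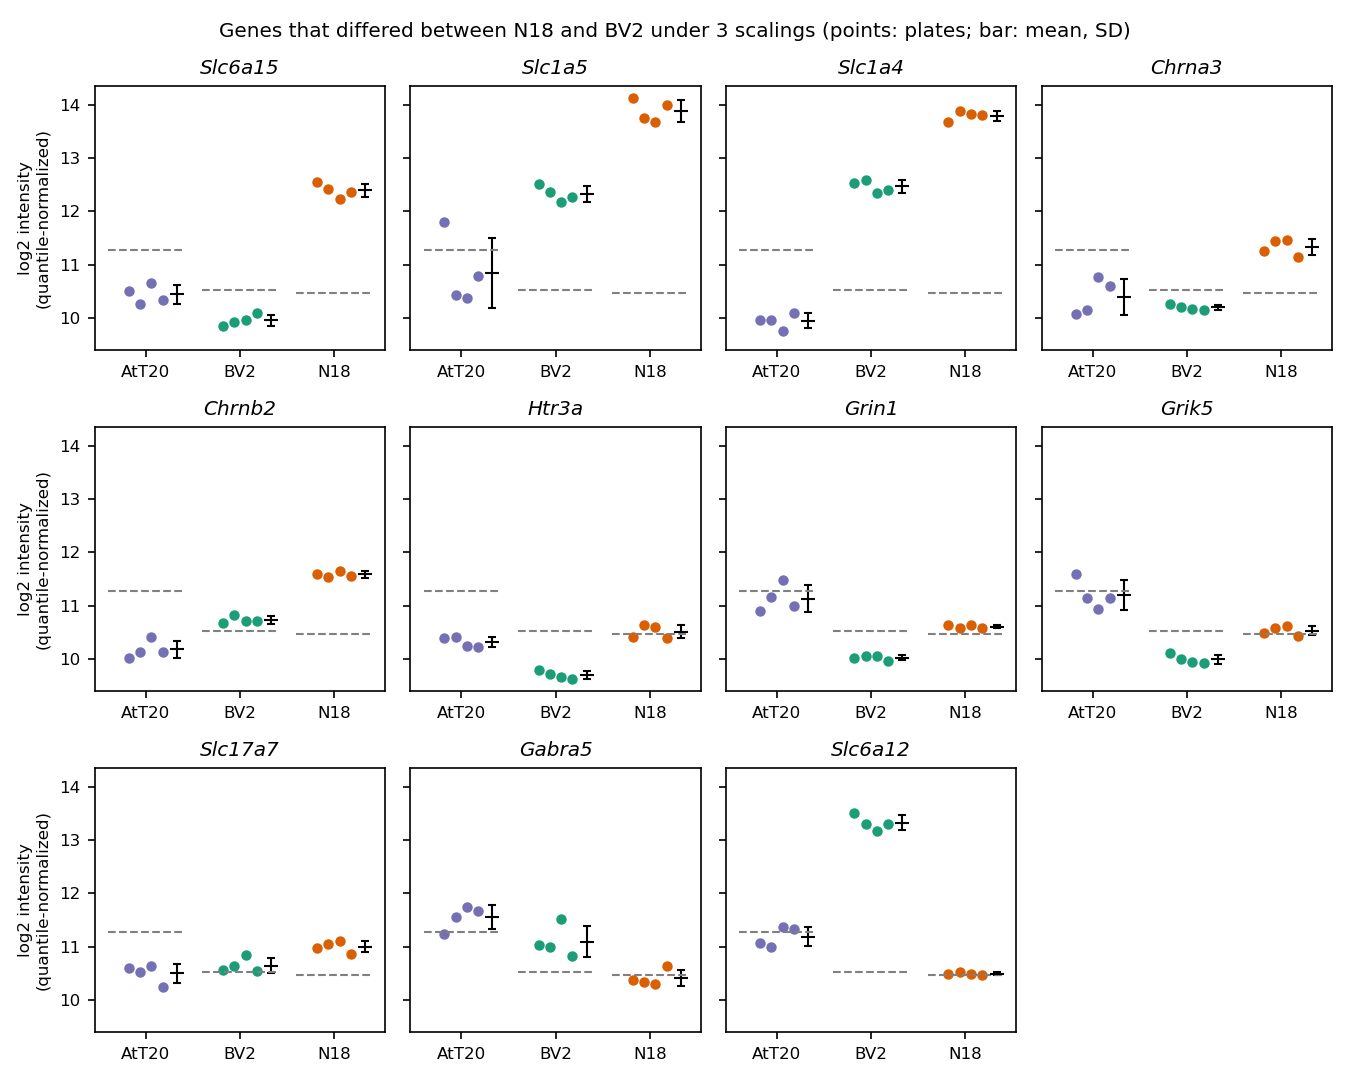
Quantile-normalized log2 intensity on each plate (points, 4 per line) for 11 of the 12 genes that differed between N18 and BV2 in the same direction under 3 scalings, with the mean and SD (black) and the detection threshold of each line (dashed). In 9 panels all N18 points lie above all BV2 points, and in the panels of Gabra5 and Slc6a12 below them.

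Chrna4, the alpha partner of Chrnb2 in the brain, was detected in all 3 lines, and it did not pass the test between N18 and BV2. It read 10.77, 10.62, 10.79 and 10.88 in N18, 10.80, 10.91, 10.92 and 10.88 in BV2 and 11.39, 12.06, 11.85 and 12.20 in AtT20. N18 and BV2 overlapped (-0.11 ± 0.14, adjusted p = 0.568). Chrna2, a neuronal alpha subunit, read 10.71, 10.42, 10.56 and 10.63 in N18, 10.81, 10.78, 10.98 and 10.69 in BV2 and 11.40, 11.61, 11.54 and 11.55 in AtT20, and Chrnb1, the beta subunit of the muscle receptor, read 10.47, 10.56, 10.70 and 10.66, 10.70, 10.66, 10.59 and 10.58 and 11.59, 11.30, 11.04 and 11.52 in the same order. In both genes N18 and BV2 overlapped and AtT20 was above them. The 3 genes were lower in BV2 and N18 than in AtT20 by 0.71 to 1.11 with quantile normalization, and higher by 0.02 to 0.40 relative to the seminal proteins. With at least 2 probes above the threshold asked for, detection was lost for Chrna4 in AtT20, for Chrnb1 in AtT20 and BV2, and for Chrna2 in every line.

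Chrna7, the subunit of the homomeric receptor that binds alpha-bungarotoxin, was detected in AtT20 only. It read 12.54, 11.97, 12.27 and 11.56 there, 10.20, 10.02, 10.14 and 10.11 in BV2 and 10.14, 10.33, 10.15 and 10.16 in N18. AtT20 was above both lines on each plate, at least 1.5-fold above BV2 (difference -1.97 ± 0.16, adjusted p = 9.68e-09) and at least 1.4-fold above N18 (-1.89 ± 0.16, adjusted p = 1.38e-08). The detection rested on 1 of 3 probes, and both calls were lost with the median of the probes.

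Chrnb4, the beta partner of Chrna3 in ganglia, was detected in BV2 at 1.09 ± 0.19 and in N18 at 1.52 ± 0.32, and the lines overlapped (-0.04 ± 0.14, adjusted p = 0.854). BV2 was higher than AtT20 by 0.34 ± 0.14 (adjusted p = 0.036), a call that was lost when any of 6 plates, AtT20 or BV2 plates 1 to 3, was left out (0.28 to 0.36). The accessory subunit Chrnb3 was detected in BV2 (0.66 ± 0.16) and N18 (0.89 ± 0.12), the accessory subunit Chrna5 in BV2 (0.66 ± 0.04) and Chrne, the adult muscle subunit, in N18 (0.84 ± 0.11). These 3 genes differed in no comparison. Detection of Chrne in N18 held under only 2 of 8 alternative rules. Chrna1, Chrna6, Chrnd and Chrng were below the threshold in every line.

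Htr3a, which forms 5-HT3 receptors by itself, was detected in N18 only, at a level of 0.91 ± 0.22 with 2 of 4 plates above their threshold. Its normalized intensity ran from 10.40 to 10.62 in N18 and from 9.61 to 9.79 in BV2, and N18 was higher by 0.81 ± 0.09 (adjusted p = 1.49e-06). The call was lost when the probes were averaged as log2 values. Htr3b, the partner subunit, was below the threshold in every line.

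Among the Slc1 transporters, the neutral amino acid carriers Slc1a4 and Slc1a5 differed between all 3 lines in one order, N18 above BV2 and BV2 above AtT20. The glutamate carriers of this family were mostly not detected. Slc1a4, which exchanges alanine, serine and cysteine and whose promoter window is printed above, read 13.67, 13.88, 13.83 and 13.80 in N18, 12.52, 12.60, 12.35 and 12.40 in BV2 and 9.96, 9.96, 9.76 and 10.10 in AtT20. No plates of different lines overlapped. N18 was 2.51-fold higher than BV2 (difference 1.33 ± 0.11, SE, adjusted p = 5.5e-08). Against AtT20, which did not reach its threshold, BV2 was at least 1.9-fold higher (2.52 ± 0.11, adjusted p = 8.73e-12) and N18 at least 5.7-fold higher (3.85 ± 0.11, adjusted p = 1.04e-13).

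Slc1a5, the glutamine carrier of many dividing cells, read 14.13, 13.74, 13.67 and 14.00 in N18, 12.50, 12.36, 12.17 and 12.27 in BV2 and 11.79, 10.43, 10.37 and 10.78 in AtT20. Plates of different lines again did not overlap, though AtT20 plate 1 was more than 1 log2 unit above the other AtT20 plates. N18 was 2.95-fold higher than BV2 (difference 1.56 ± 0.24, adjusted p = 5.05e-05). BV2 was at least 1.5-fold above AtT20 (1.48 ± 0.24, adjusted p = 3.09e-05) and N18 at least 5.8-fold (3.04 ± 0.24, adjusted p = 6.51e-09). All 3 probes of either gene were above the threshold in BV2 and in N18.

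Slc1a3, the glial glutamate carrier GLAST, was detected in BV2 and N18. It read 10.50, 10.71, 10.80 and 10.47 in BV2, 10.50, 10.33, 10.52 and 10.52 in N18 and 9.86, 9.79, 10.42 and 9.79 in AtT20. BV2 and N18 overlapped (-0.15 ± 0.13, adjusted p = 0.391), and BV2 was above AtT20 on each plate. The differences from AtT20, 0.66 ± 0.13 for BV2 (adjusted p = 0.000307) and 0.51 ± 0.13 for N18 (adjusted p = 0.00255), turned without normalization (-0.53 and -0.46). The call for N18 was also lost without N18 plate 3 or plate 4 (0.49 in both cases). Detection of Slc1a3 in N18 held under 4 of 8 alternative rules, and in 2 of the 4 cases with 1 N18 plate left out. Slc1a1, Slc1a2, Slc1a6 and Slc1a7 were below the threshold in every line.

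In N18 against BV2, the Slc6 family held the gene with the largest difference of the 89 in each direction. Slc6a15, a carrier of branched-chain amino acids and proline in neurons, was detected in N18 only. It read 12.55, 12.42, 12.23 and 12.37 in N18, 9.85, 9.92, 9.96 and 10.10 in BV2 and 10.50, 10.25, 10.66 and 10.34 in AtT20. The N18 plates were more than 1 log2 unit above all others. N18 was at least 3.6-fold higher than BV2 (difference 2.44 ± 0.11, SE, adjusted p = 3.09e-11) and at least 2.1-fold higher than AtT20 (1.95 ± 0.11, adjusted p = 1.8e-10).

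Slc6a12, which carries betaine and GABA and whose promoter window is printed above, read 13.51, 13.31, 13.17 and 13.31 in BV2, 10.49, 10.53, 10.48 and 10.46 in N18 and 11.06, 11.00, 11.36 and 11.33 in AtT20. Each BV2 plate was above all plates of the other lines. BV2 was 7.14-fold higher than N18 (N18 minus BV2 -2.84 ± 0.12, adjusted p = 6.82e-12). Its difference from AtT20 was 2.14 ± 0.12 (adjusted p = 9.82e-11). No fold is given against AtT20, where the detection of Slc6a12 rested on 1 of 3 probes and was lost under 7 of 8 alternative rules and when any 1 of 3 of the 4 plates was left out. In N18 2 of 3 probes were above the threshold, and detection was lost under 3 of 8 rules. N18 and AtT20, both near their thresholds, had no settled order: N18 was lower by 0.70 ± 0.12 with quantile normalization and higher by 0.44 relative to the seminal proteins.

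Slc6a6, the taurine carrier, was detected in BV2 and N18. It read 12.48, 12.70, 12.28 and 12.44 in BV2, 11.74, 11.72, 11.80 and 11.57 in N18 and 10.55, 10.40, 10.32 and 10.62 in AtT20. The 3 lines did not overlap. BV2 was at least 1.9-fold above AtT20 (2.00 ± 0.12, adjusted p = 2.41e-10) and N18 at least 1.3-fold (1.24 ± 0.12, adjusted p = 7.36e-08). N18 was below BV2 by 0.77 ± 0.12 (adjusted p = 5.68e-05), a call lost under both other scalings, where the differences were -0.19 and -0.22.

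Slc6a9, the glycine carrier GlyT1, was detected in all 3 lines. It read 12.78, 12.63, 12.66 and 12.47 in N18, 12.64, 12.55, 12.30 and 12.41 in BV2 and 12.29, 11.65, 11.33 and 11.66 in AtT20. N18 and BV2 overlapped (0.16 ± 0.17, adjusted p = 0.47), and all AtT20 plates were below both. The difference from AtT20 was 0.74 ± 0.17 in BV2 (adjusted p = 0.000812) and 0.90 ± 0.17 in N18 (adjusted p = 0.000125), with the same direction under 3 scalings, and both calls were lost with the median of the probes.

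On the plates labelled AtT20, Slc6a14 and Slc6a21 were detected and in neither other line. Slc6a14, a carrier of neutral and cationic amino acids, read 10.99, 11.65, 11.54 and 11.85 in AtT20, 10.14, 10.04, 10.28 and 10.14 in BV2 and 10.10, 9.99, 10.06 and 10.26 in N18, with AtT20 above all plates of the others. BV2 was lower by 1.36 ± 0.15 (adjusted p = 3.46e-07) and N18 by 1.41 ± 0.15 (adjusted p = 2.04e-07), the latter not past the test relative to the seminal proteins (-0.28). Slc6a21 read 12.05, 11.83, 11.65 and 11.91 in AtT20, 10.23, 10.16, 10.22 and 10.08 in BV2 and 10.01, 9.95, 9.92 and 9.95 in N18. AtT20 was at least 1.3-fold above BV2 (-1.69 ± 0.10, adjusted p = 2.1e-10) and at least 1.1-fold above N18 (-1.90 ± 0.10, adjusted p = 4.8e-11). Only 1 Slc6a21 probe was above the threshold, and with the median of the probes its sign turned in both comparisons (0.58 and 0.28).

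Of the other Slc6 genes, the GABA carrier Slc6a13, the serotonin carrier Slc6a4 and the creatine carrier Slc6a8 were detected in N18 only, at levels of 0.99 ± 0.08, 0.83 ± 0.07 and 1.25 ± 0.24. None of the 3 passed the test between N18 and BV2 (adjusted p = 0.289, 0.333 and 0.0739). They were higher in N18 than in AtT20 by 0.57, 0.49 and 0.78, with the signs turned without normalization. Slc6a17, a vesicular amino acid carrier, was detected in BV2 and N18 (0.67 ± 0.08 and 0.78 ± 0.12) and differed in no comparison. In N18 the detection of Slc6a17 held under 2 of 8 alternative rules, and that of Slc6a8 was lost with at least 2 probes asked for. Slc6a7, the brain proline carrier, was close to the threshold in AtT20 and BV2 (0.53 ± 0.33 and 0.56 ± 0.15) and lower than AtT20 by 0.87 ± 0.15 in BV2 and 0.95 ± 0.15 in N18, with both signs turned relative to the seminal proteins. Slc6a2, Slc6a3, Slc6a5, the GABA carrier Slc6a11 and the epithelial amino acid carrier Slc6a19 were below the threshold in every line.

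Slc6a20b was detected in BV2 only (0.65 ± 0.14), and its near-identical paralog Slc6a20a in no line, so signal of the pair cannot be assigned with certainty. N18 was below BV2 for Slc6a20b by 0.37 ± 0.14 (adjusted p = 0.0428). This call was lost without any 1 of AtT20 plate 2, BV2 plates 2, 3 or 4, or N18 plates 1, 2, 3 or 4 (-0.41 to -0.30) and under 5 of 8 settings. BV2 was above AtT20 by 0.44 ± 0.14, with the sign turned without normalization (-0.64).

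Among the vesicular and related carriers, 2 of 10 were detected in AtT20, 3 in BV2 and 3 in N18. Slc17a7, the vesicular glutamate carrier VGLUT1, was detected in BV2 (level 0.68 ± 0.14) and N18 (1.58 ± 0.19). Its normalized intensity ran from 10.86 to 11.11 in N18 and from 10.55 to 10.84 in BV2, and N18 was higher by 0.36 ± 0.11 (adjusted p = 0.0176). This call was lost without BV2 plate 1 or 4 or N18 plate 3 (0.32 to 0.33) and with the median of the probes.

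Slc17a9, the vesicular ATP carrier, was detected in all 3 lines. It read 11.74, 12.09, 11.98 and 12.33 in AtT20, 11.45, 11.20, 11.32 and 11.20 in BV2 and 10.88, 10.67, 10.68 and 10.94 in N18. No plates of different lines overlapped. N18 was below BV2 by 0.50 ± 0.13 (adjusted p = 0.00505), a call lost under both other scalings. Asking for at least 2 probes above the threshold lost the detection of Slc17a9 in AtT20 and in N18. Slc32a1, the vesicular carrier of GABA and glycine, read 11.73, 11.88, 11.93 and 12.34 in AtT20, 10.80, 10.94, 10.97 and 10.77 in BV2 and 10.76, 10.61, 10.74 and 10.95 in N18. BV2 and N18 overlapped (-0.11 ± 0.13, adjusted p = 0.55), and AtT20 was above both. Both genes were lower in BV2 and N18 than in AtT20 by 0.74 to 1.24 with quantile normalization, and higher by 0.05 to 0.37 relative to the seminal proteins. Slc17a1 to Slc17a6, which include phosphate-linked carriers of kidney and liver and the lysosomal carrier Slc17a5, and Slc17a8 were below the threshold in every line.

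Genes that make, pack, anchor and traffic the same systems were listed apart from the 89, and 80 of 89 such genes were measured. In N18 against BV2 27 of them were higher and 8 lower (43.8%, background 35.2%), with a median difference of 0.13 against -0.06 over all genes. The genes with the largest differences were the glutamate receptor scaffold Grip1 (3.19) and the AMPA receptor auxiliary subunit Cacng3 (2.64), higher in N18, and the GPI-anchored protein Ly6e (-5.17) and the adhesion protein Nlgn3 (-0.94), lower. BV2 against AtT20 had 14 higher and 29 lower genes (53.8%, background 48%), led by Ly6e (5.51) and Gabarapl1, a relative of the GABA-A receptor-associated protein (3.35), among the higher and by gephyrin, Gphn, the anchor of GABA-A and glycine receptors (-2.53), and the nicotinic receptor anchor Rapsn (-2.35) among the lower. N18 against AtT20 had 27 higher and 22 lower genes (61.3%, background 50%), led by Gabarapl1 (3.69) and the scaffold gene Lin7c (2.93), and by Rapsn (-2.46) and Gphn (-2.41). By direction the background shares were 17.4% higher and 17.8% lower in N18 against BV2. They were 24.2% and 23.8% in BV2 against AtT20, and 26.1% and 23.9% in N18 against AtT20. Under the 3 scalings 29, 16 and 24 of the 80 companion genes held in N18 against BV2, BV2 against AtT20 and N18 against AtT20. Over all genes and targets the higher and lower shares that held were 17.4% and 5.99%, 11.7% and 7.95%, and 18.7% and 6.18%, in the same order.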

How the data were processed

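Total RNA from 4 separately extracted plates of each line was measured on NimbleGen MM8 arrays of long oligonucleotide probes, 1 array per plate. The deposited log2 values are Cy3 intensities of 72000 probes per array, which the authors transformed, and neither background subtraction nor normalization between arrays is named in the methods or visible in the values. Probes of a target were averaged as intensities and log2-transformed, and targets of a gene were averaged. Symbols came from the mouse RefSeq table, which named 69.4% of the 25631 targets. The 89 genes had 279 probes, mostly 3 per gene, so the number of probes limits precision. No probe of these genes was at the scanner limit. The slide of each array was not known and could not be tested as a batch.

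Detection followed the threshold of the study, 2 SD of 10 seminal proteins. Lines were compared in 1 fit of the 12 arrays on quantile-normalized probes with limma 3.58.1 in R 4.3.3, using lmFit, contrasts and a mean-variance trend in eBayes, with Benjamini-Hochberg adjustment over 25128 genes and targets. Per-plate counts were compared by exact permutation tests. A lower bound of a fold is the smallest over the 3 scalings, taken per plate from the higher of the threshold and the gene's own value in the lower line. Named with values on every plate were the called genes with the largest differences, up to 6 per direction and comparison, and the genes detected in all 3 lines, except that some genes are not reported here by name or in the figures. Companion genes were named by the 2 largest differences each way. The genes and lists were chosen with earlier results of these data known. On simulated data at this size, true differences of 1 were found for 92.5% of changed genes in N18 against BV2 and 93% in N18 against AtT20, and differences of 0.5 for 30% and 32%. These shares used the adjusted p alone, with 200 of 25128 genes changed. They leave out the detection that a call here also needs. In these data 40.9% of genes and targets passed the adjusted p in N18 against BV2 and 76.4% in N18 against AtT20. The cutoff depends on that share, so the simulated shares do not carry over to these comparisons. Alternatives were the summary of probes, the controls and their SD multiple, the number of probes or plates above the threshold, the scaling, normexp with an offset of 50, a filter on dim genes, a replicate block, the arrays in the fit, a minimum difference, and leaving out each plate. Chosen after seeing the data were the call under 3 scalings, the call with at least 2 probes, and the alternatives for the companion genes. Figures were drawn with matplotlib 3.10.9.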

Additional observations from a re-analysis of the deposited data

Results flagged for a closer look

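Within the 4 plates of a line, 108 sets of values were examined for a single plate far from the other 3. A set held the normalized values of a gene or the counts of detected genes. Of the 108 sets 8 stood out, where chance gives about 1 in 20, and each of them was of a gene. On the plates labelled AtT20, Gabre was low on plate 1 (9.38, the others 9.81 to 9.87), Gabrr1 was high on plate 4 (11.37, the others 10.68 to 10.78), Grin3b was high on plate 4 (12.53, the others 12.22 to 12.27) and Slc1a3 was high on plate 3 (10.42, the others 9.79 to 9.86). In N18, Chrna7 was high on plate 2 (10.33, the others 10.14 to 10.16), Slc1a3 was low on plate 2 (10.33, the others 10.50 to 10.52) and Slc6a8 was low on plate 1 (10.53, the others 10.83 to 10.85). In BV2, Slc6a7 was high on plate 3 (10.70, the others 10.46 to 10.48). The cause of these values was not tested.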

How the results depend on the processing

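Of 18, 24 and 30 genes that differed in N18 against BV2, BV2 against AtT20 and N18 against AtT20, 8, 6 and 7 kept their direction and call under all 8 other settings, and 15, 22 and 27 without each plate. The sign turned under at least 1 setting for 1, 15 and 17. The arrays give levels over background only, most of these genes lie near the thresholds, and the cause of the changes below was not tested.

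The genes detected in AtT20 numbered 8 with the median of probes, 9 with olfactory receptor controls, 10 with every plate above its threshold and 7 with at least 2 probes. In BV2 they numbered 7 with olfactory receptor controls and 15 at 3 SD, and in N18 10 and 16. Without 1 plate they ranged from 16 to 22 in AtT20, 25 to 31 in BV2 and 28 to 38 in N18. The mean count per plate of BV2 minus AtT20 became -0.75 with olfactory receptor controls and 13 with the median of probes, and ranged from 8.17 to 11.7 without 1 plate, with 11.7 without BV2 plate 3. That of N18 minus AtT20 became 14.5 with the median and ranged from 10.7 to 14. That of N18 minus BV2 became -0.25 at 3 SD and ranged from 0.33 to 4.5.

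With no normalization, 5 genes were higher in BV2 than AtT20, 8 higher in N18 than AtT20 and 2 lower in N18 than BV2. With levels relative to the seminal proteins, 16 were higher and 5 lower in BV2 than AtT20, 25 higher and 3 lower in N18 than AtT20, and 18 higher and 3 lower in N18 than BV2. With a difference of at least 1 the counts were 4 higher and 7 lower in BV2 than AtT20, 6 higher in N18 than AtT20, and 5 higher and 1 lower in N18 than BV2. By the adjusted p alone they were 15 higher and 53 lower, 55 lower, and 14 lower. With the median of probes 7 were lower in each comparison with AtT20, and with at least 2 probes 6 in each. Under all 3 scalings, 5 were higher and 5 lower in BV2 than AtT20, 8 higher and 3 lower in N18 than AtT20, and 2 lower in N18 than BV2. Without 1 plate the higher and lower counts ranged from 8 to 10 and 14 to 17 in BV2 against AtT20, 13 to 15 and 14 to 18 in N18 against AtT20, and 9 to 11 and 6 to 10 in N18 against BV2. For the companion genes, 28 differed in BV2 against AtT20 with the median, and 16 and 24 in BV2 and N18 against AtT20 under the 3 scalings. The fit of only the arrays of BV2 and N18 gave 12 higher and 12 lower genes in N18.

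Relative to the seminal proteins, BV2 minus AtT20 turned to 0.63 for Gabra5, 0.13 for Grin2b, 0.022 for Grin2c, 0.25 for Grin3b, 0.27 for Chrna2, 0.020 for Chrna4, 0.12 for Chrnb1, 0.039 for Slc6a7, 0.37 for Slc17a9 and 0.048 for Slc32a1. N18 minus AtT20 turned to 0.18 for Gabra5, 0.51 for Grik5, 0.040 for Grin2b, 0.12 for Grin2c, 0.40 for Chrna2, 0.28 for Chrna4, 0.40 for Chrnb1, 0.44 for Slc6a12, 0.20 for Slc6a7, 0.22 for Slc17a9 and 0.34 for Slc32a1. Without normalization, BV2 minus AtT20 turned to -0.51 for Chrnb2, -0.39 for Chrnb4, -0.53 for Slc1a3 and -0.64 for Slc6a20b, and N18 minus AtT20 to -0.17 for Gabre, -0.46 for Slc1a3, -0.29 for Slc6a13, -0.44 for Slc6a4 and -0.0073 for Slc6a8. With the median of probes, BV2 minus AtT20 turned to 0.21 for Chrna4, 0.32 for Chrnb1 and 0.58 for Slc6a21, N18 minus AtT20 to 0.13 for Chrna4, 0.33 for Chrnb1, 0.41 for Slc6a12 and 0.28 for Slc6a21, and N18 minus BV2 to 0.017 for Grin2d.

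Plates with the same number did not pair, with correlations of their deviations from -0.11 to 0.32, and 4 of 12 plates correlated best with their own number. With the replicate number as a block, 9 genes were higher and 15 lower in BV2 than AtT20, 14 and 16 in N18 than AtT20, and 10 and 7 in N18 than BV2, where the call of Slc6a20b was lost.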
